A study of Homo sapiens with 6 samples.

Results

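Expression of 10 genes that ERK signalling is known to induce, most of which restrain it in turn, was followed in colorectal cancer cells exposed to CSE. They were taken by name from the deposited table, where each Ensembl identifier was matched to its symbol, and all 10 of 10 were found among the 20263 genes. They form 3 subgroups: the MAP kinase phosphatase genes DUSP4, DUSP5 and DUSP6; the Sprouty and Spred genes SPRY2, SPRY4, SPRED1 and SPRED2; and the PEA3 transcription factor genes ETV1, ETV4 and ETV5. All 10 also passed the filter on low values, which kept 12793 genes with at least 1 TPM (a transcript's share of its library, corrected for transcript length) in at least 3 libraries.

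The data are poly(A) RNA-seq values from 3 samples of HCT116 treated with CSE (CSE samples) and 3 of wild-type HCT116 (WT samples). HCT116 is an established human colorectal cancer line of epithelial origin. The labels do not write CSE out; the series title names smoking, and it is taken here to stand for cigarette smoke extract. The sources used here give no dose, duration or solvent for the WT cells. They do not say either whether the 3 samples of a group were separate cultures, so the p-values reflect the spread among the samples at hand, which may be technical.

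ERK is the last kinase of the cascade that runs from growth factor receptors through RAS, RAF and MEK. When it is active it induces genes whose products switch it off again. DUSP proteins remove phosphate from ERK itself, Sprouty and Spred proteins act higher up, near the receptor, RAS and RAF, and the PEA3 factors are nuclear ETS proteins that carry the signal on to further genes. Their mRNAs are widely read as a sign of the cascade's output, but mRNA is not a measure of ERK phosphorylation, which was not assayed here.

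The PEA3 factor genes were higher in CSE samples, the phosphatase genes were split, and the Sprouty and Spred genes were higher or not called. Of the 10 genes, limma called 6 higher in CSE, against 24.5% of all genes tested, and 2 lower, against 25.6%. Over both directions 8 of 10 were called, against 50.1% of all genes tested, so a call by itself says little in these data. The median log2 fold change of the 10 genes was 0.12 and that of all genes tested was -0.0039. ETV1 changed most, with a log2 fold change of 0.94 that was larger in size than those of 99.5% of the genes tested. For 8 of the 10 genes the CSE and WT values did not overlap, against 57.4% of all genes tested. As in any bulk sample, fewer cells with a transcript and less of it per cell cannot be told apart.

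**Figure D1:**
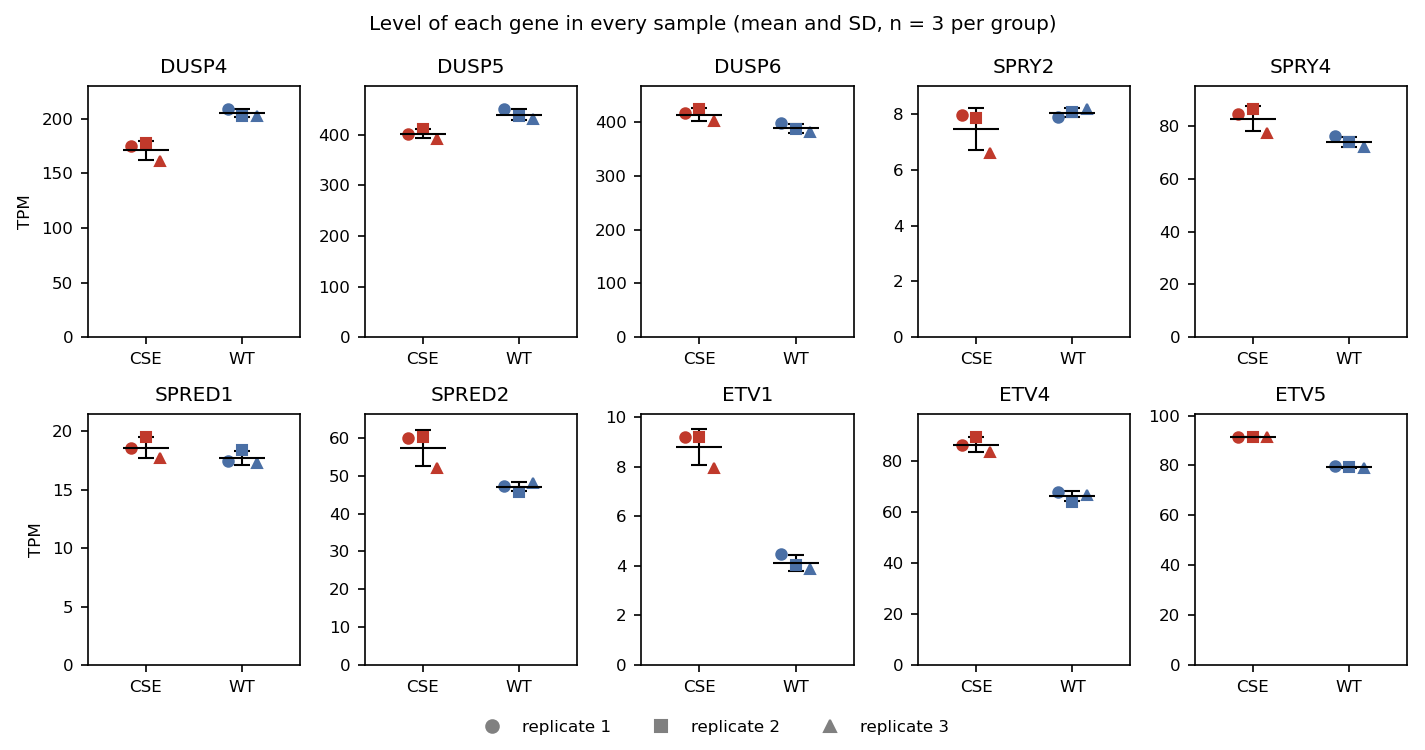
TPM of each of the 10 genes in every sample, with CSE samples left of WT samples, symbols for the replicate number, and the mean with its SD as black lines (n = 3 per group). Every y axis starts at 0. In fold terms the groups lie furthest apart for ETV1, at 7.95 to 9.21 TPM in CSE samples and 3.85 to 4.47 TPM in WT samples. They overlap for SPRY2 and SPRED1.

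The PEA3 factors recognise DNA through an ETS domain that binds sites with a GGAA core. RefSeq promoter windows (GRCh38.p14, 250 bases before to 50 after a start site) were at hand for 6 of the 10 genes, namely DUSP6, SPRY2, SPRY4, SPRED1, SPRED2 and ETV1. The windows of the 4 of these that were called higher are printed in the direction of transcription, with GGAA and its reverse complement TTCC in capitals. They show the sequence that a GGAA search reads. For SPRED2 and ETV1, which have several listed starts, the one listed first is shown.
DUSP6 (chr12:89352452-89352751, minus strand): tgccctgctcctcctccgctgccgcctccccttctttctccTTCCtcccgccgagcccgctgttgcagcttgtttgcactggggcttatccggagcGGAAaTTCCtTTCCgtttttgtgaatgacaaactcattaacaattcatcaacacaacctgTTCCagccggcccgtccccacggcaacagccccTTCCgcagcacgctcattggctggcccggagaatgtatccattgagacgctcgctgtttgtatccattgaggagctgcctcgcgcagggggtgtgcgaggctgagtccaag
SPRY4 (chr5:142324198-142324497, minus strand): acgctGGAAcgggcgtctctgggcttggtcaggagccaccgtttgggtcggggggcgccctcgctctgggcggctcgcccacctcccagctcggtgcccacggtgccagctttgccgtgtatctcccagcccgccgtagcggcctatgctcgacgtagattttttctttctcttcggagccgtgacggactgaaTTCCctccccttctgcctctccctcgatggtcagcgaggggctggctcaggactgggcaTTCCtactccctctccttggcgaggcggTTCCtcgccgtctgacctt
SPRED2 (chr2:65432550-65432849, minus strand): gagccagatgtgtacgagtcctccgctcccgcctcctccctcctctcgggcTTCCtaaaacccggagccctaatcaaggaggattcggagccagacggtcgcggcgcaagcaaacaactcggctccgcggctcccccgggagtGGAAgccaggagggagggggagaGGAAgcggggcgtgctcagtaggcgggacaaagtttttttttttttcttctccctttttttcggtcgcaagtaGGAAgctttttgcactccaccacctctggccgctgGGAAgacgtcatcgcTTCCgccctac
ETV1 (chr7:13990653-13990952, minus strand): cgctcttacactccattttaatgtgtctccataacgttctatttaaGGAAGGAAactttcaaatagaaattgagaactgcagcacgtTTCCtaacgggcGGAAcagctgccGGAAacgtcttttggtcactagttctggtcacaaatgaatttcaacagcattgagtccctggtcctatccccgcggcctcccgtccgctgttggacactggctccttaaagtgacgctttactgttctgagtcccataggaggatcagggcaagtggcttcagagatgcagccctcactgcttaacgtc

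The core was found 6 times in the DUSP6 window, 4 times in that of SPRY4, 6 times in that of SPRED2 and 5 times in that of ETV1, both strands counted. So short a motif is common, and 95.5% of all 35116 promoter windows held it, with a median of 3 matches. The genes not called had counts in an overlapping range, 3 in the SPRED1 window and 3, 4 and 5 in the SPRY2 windows. The windows not printed held 5 for SPRED2 and 4, 3, 5, 6 and 3 for ETV1. The longer motif AGGAAG, which contains the core, was found once in the printed windows of DUSP6 and ETV1, 3 times in that of SPRED2 and 0 times in that of SPRY4, with 33.6% of all windows holding it on either strand. Of the windows not printed, the second of SPRED2 and the fourth of ETV1 held 1 match each and the other 4 of ETV1 held 0. The fourth of ETV1 (13990657 to 13990956) covers nearly the same bases as the printed window, and its match is the same site. SPRED1 and SPRY2, which were not called, held it as well, with 2 matches in the SPRED1 window and 1 in each of the 3 SPRY2 windows. Of TGANTCA, a loose form of the AP-1 motif that allows any base at N, 2 matches lay in the second window of SPRED2. They read TGACTCA and TGAATCA, and 7.71% of all windows had a match to the loose form. The CRE motif TGACGTCA was in none of the 14 windows of these genes (1.85% of all windows). A match is only a stretch of letters, and the data hold no binding measurement.

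ETV1, ETV4 and ETV5 were all 3 called higher in CSE samples. ETV1 (ENSG00000006468, minus strand of chromosome 7, 13891228 to 13991425) was at 9.21, 9.21 and 7.95 TPM in CSE samples, against 4.47, 4.03 and 3.85 TPM in WT samples. It had the lowest level of the 10 genes in WT samples and was 2.14-fold higher in CSE samples (8.79 ± 0.727 and 4.12 ± 0.319 TPM, SD, n = 3 each). The log2 fold change was 0.94 with an SE of 0.0764, and limma gave an adjusted p of 1.95e-09. Because 1 was added before taking logs, this log2 value understates the change of so low a gene, and with a pseudocount of 0.1 it was 1.08. Ranked from the highest value downward, ETV1 stood at place 21 of the 12793 genes tested.

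ETV4 (ENSG00000175832, minus strand of chromosome 17, 43527844 to 43579620), the founding PEA3 gene, was at 86.3, 89.6 and 83.6 TPM in CSE samples, against 68.0, 64.0 and 66.7 TPM in WT samples. The groups stood well apart, at 86.5 ± 3.02 and 66.2 ± 2.00 TPM (SD, n = 3 each), a 1.31-fold difference (limma adjusted p = 2.54e-07, with a log2 fold change of 0.38 and an SE of 0.043). ETV5 (ENSG00000244405, minus strand of chromosome 3, 186046308 to 186110318) was at 91.3, 91.3 and 91.6 TPM in CSE samples, against 79.6, 79.2 and 79.0 TPM in WT samples. Its spread was the smallest of the 10 genes relative to its level, and the 1.15-fold difference (log2 fold change 0.20, SE 0.0392) was called by limma with an adjusted p of 0.000204. ETV4 overlaps the oppositely oriented DHX8 and ETV5 overlaps DGKG on the same strand. DHX8 was at 26.1 to 30.3 TPM in CSE samples and 27.3 to 29.9 TPM in WT samples. DGKG was at 2.12 to 2.72 TPM in CSE samples and 2.33 to 2.51 TPM in WT samples, so the groups overlapped for both. ETV5 also overlaps ETV5-AS1 and RF00017, for which there are no values, and the part of overlapping reads was not tested.

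ETV1 and ETV4 took larger shares of the family in CSE samples. ETV1 made up 4.93%, 4.84% and 4.34% of the summed TPM of the 3 genes in CSE samples, against 2.94%, 2.74% and 2.57% in WT samples. The sum itself was 187 ± 3.51 TPM in CSE samples and 150 ± 2.37 TPM in WT samples (SD, n = 3 each). ETV4 held 46.3% ± 0.755 in CSE samples and 44.3% ± 0.673 in WT samples, and ETV5 held 49.0% ± 0.998 in CSE samples and 53.0% ± 0.727 in WT samples. ETV1 thus remained the least abundant of the 3 in every sample. The ratio of ETV4 to ETV5 TPM within a sample, which does not depend on scaling, was 0.945, 0.982 and 0.913 in CSE samples, against 0.854, 0.809 and 0.843 in WT samples.

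The phosphatase genes were the most abundant of the 10 and moved apart. DUSP4 and DUSP5 encode nuclear phosphatases, and DUSP6 a cytoplasmic one that is selective for ERK. DUSP4 (ENSG00000120875, chromosome 8) was at 175, 177 and 161 TPM in CSE samples, against 209, 203 and 203 TPM in WT samples. The groups did not overlap, and the mean decreased by 16.5% to 171 ± 8.78 TPM in CSE samples, against 205 ± 3.61 TPM in WT samples (SD, n = 3 each). The log2 fold change was -0.26 with an SE of 0.0412, and limma gave an adjusted p of 2.08e-05. DUSP5 (ENSG00000138166, plus strand of chromosome 10, 110497838 to 110511544) was at 402, 411 and 393 TPM in CSE samples, against 451, 437 and 432 TPM in WT samples. It decreased by 8.63% (log2 fold change -0.13, SE 0.0367), which limma called with an adjusted p of 0.00558.

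DUSP6 (ENSG00000139318, minus strand of chromosome 12, 89347232 to 89353271) went the other way by a little, at 416, 425 and 401 TPM in CSE samples, against 398, 387 and 382 TPM in WT samples. All 3 CSE values lay above all 3 WT values, but the closest pair, CSE sample 3 and WT sample 1, differed by less than the SD of either group (11.7 TPM in CSE samples, 8.43 TPM in WT samples). The log2 fold change was 0.09 (SE 0.0371, 95% interval 0.013 to 0.17), just past the threshold with a limma adjusted p of 0.0476. The call is fragile: it was lost in 9 of 15 alternative settings, where the adjusted p ran up to 0.362, among them leaving out CSE sample 1 (limma adjusted p = 0.147), CSE sample 2 (0.207), WT sample 2 (0.146) or WT sample 3 (0.13).

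The split between the phosphatase genes was clearer within samples than in any one level. The ratio of DUSP5 to DUSP6 TPM was 0.967, 0.968 and 0.978 in CSE samples, against 1.13, 1.13 and 1.13 in WT samples. DUSP6 was therefore the more abundant of the pair in each CSE sample and DUSP5 in each WT sample, although over the CSE samples their ranges overlap (401 to 425 TPM for DUSP6 and 393 to 411 TPM for DUSP5). The ratio of DUSP4 to DUSP6 was 0.413 ± 0.0103 in CSE samples and 0.527 ± 0.00398 in WT samples (SD, n = 3 each). Together the 3 genes summed to 987 ± 29.3 TPM in CSE samples and 1034 ± 22.1 TPM in WT samples, with the highest CSE sum (1013 TPM) just under the lowest WT sum (1016 TPM). DUSP6 held 41.9% of that sum in CSE samples and 37.6% in WT samples.

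**Figure D2:**
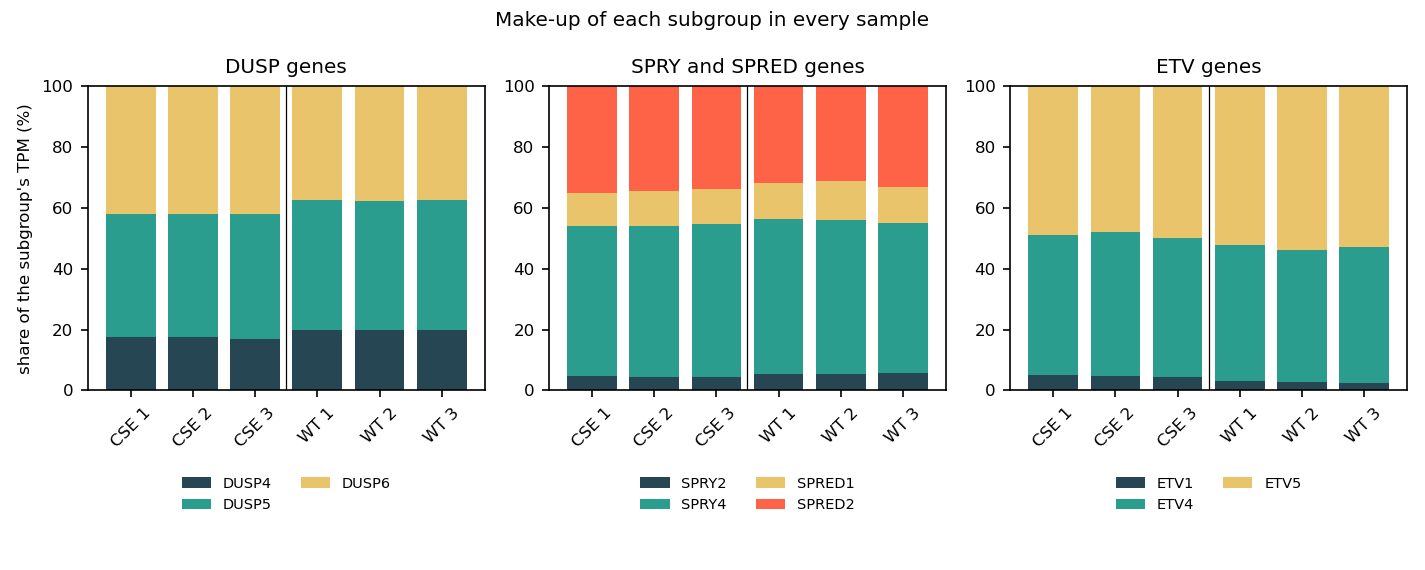
Share of each gene in the summed TPM of its subgroup (%), 1 bar per sample, with CSE samples left of the black line and WT samples right of it. DUSP6 takes 41.9% to 42.0% of the phosphatase sum in CSE samples and 37.5% to 37.7% in WT samples, and ETV1 takes 4.34% to 4.93% of the ETV sum in CSE samples and 2.57% to 2.94% in WT samples.

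Among the Sprouty and Spred genes, SPRY4 and SPRED2 were called higher in CSE samples, and SPRY2 and SPRED1 were not called. SPRED2 (ENSG00000198369, minus strand of chromosome 2, 65310851 to 65432637), which encodes a membrane-bound inhibitor of RAF activation, was at 60.0, 60.4 and 52.0 TPM in CSE samples, against 47.4, 45.8 and 48.1 TPM in WT samples. CSE sample 3 lay closest to the WT samples without reaching them, and the means differed 1.22-fold (limma adjusted p = 0.000146, with a log2 fold change of 0.28 and an SE of 0.0522). SPRY4 (ENSG00000187678, minus strand of chromosome 5, 142310427 to 142326455), a Sprouty inhibitor of receptor signalling to RAS, was at 84.4, 86.5 and 77.3 TPM in CSE samples, against 76.0, 73.9 and 72.0 TPM in WT samples. CSE sample 3 again sat just above the highest WT value, and the 1.12-fold difference (log2 fold change 0.16, SE 0.0457) had a limma adjusted p of 0.00665.

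SPRY2 (ENSG00000136158, minus strand of chromosome 13, 80335976 to 80340951), which encodes the Sprouty protein best known for binding the ubiquitin ligase CBL, was at 7.97, 7.85 and 6.61 TPM in CSE samples, against 7.88, 8.08 and 8.19 TPM in WT samples. The groups overlapped, and the log2 fold change was -0.098 (95% interval -0.25 to 0.051, limma adjusted p = 0.265). Most of that difference came with CSE sample 3, without which it was -0.022 (limma adjusted p = 0.758). SPRED1 (ENSG00000166068, plus strand of chromosome 15, 38252326 to 38357249), which brings the RAS inhibitor neurofibromin to the membrane, was at 18.6, 19.6 and 17.7 TPM in CSE samples, against 17.4, 18.4 and 17.3 TPM in WT samples. Its log2 fold change of 0.068 had a 95% interval of -0.047 to 0.18 (limma adjusted p = 0.318), which does not exclude a rise of the size seen for SPRY4. SPRY4 was the most abundant of the 4 genes in all 6 samples, with 49.8% ± 0.49 of their sum in CSE samples and 50.4% ± 0.83 in WT samples (SD, n = 3 each).

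**Figure D3:**
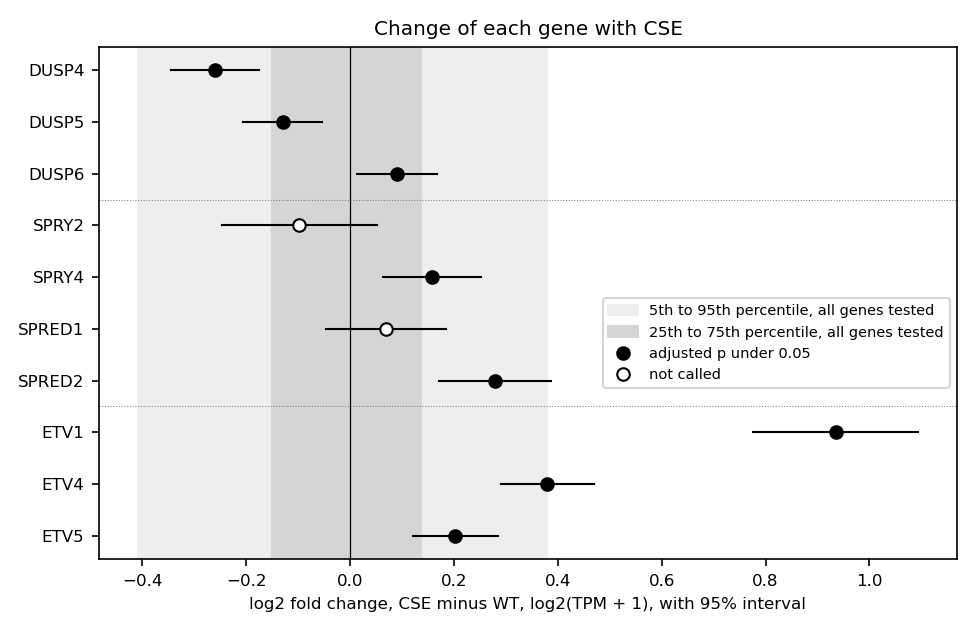
Log2 fold change of each gene, CSE minus WT in log2(TPM + 1), with its 95% interval from limma (filled circles: adjusted p under 0.05; dotted lines separate the subgroups). Grey bands give the spread over all 12793 genes tested, from -0.15 to 0.14 for the middle band and from -0.41 to 0.38 for the outer one; ETV1 at 0.94 lies outside both, ETV4 at 0.38 at the edge of the outer one, and the other 8 inside it.

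Set side by side on the TPM scale, which is per transcript length, the 10 genes spanned a wide range of levels. In CSE samples the order from high to low was DUSP6, DUSP5, DUSP4, ETV5, ETV4, SPRY4, SPRED2, SPRED1, ETV1 and SPRY2. The neighbours DUSP6 and DUSP5, ETV4 and SPRY4, and ETV1 and SPRY2 overlapped there between samples. In WT samples DUSP5 came before DUSP6, SPRY4 before ETV4, and SPRY2 before ETV1, and no neighbours overlapped. DUSP5 in WT samples exceeded 98.5% of the genes tested, and ETV1 exceeded 14.0%. Within the 3 subgroups, all 12 of 12 ratios of member pairs had groups that did not overlap, against 60.2% of all pairs of tested genes, and no test was made of them.

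CSE sample 3 was the lowest of the CSE samples for 9 of the 10 genes, all but ETV5, and for 57.9% of all genes tested. Without it, the same number of the 10 genes was called higher (6) and lower (2), with log2 fold changes of 1.00 for ETV1 and 0.21 for SPRY4. Of the 12740 genes tested in that setting, 3518 were called higher and 3040 lower. Mitochondrially encoded genes held 25.5% to 25.8% of the TPM in CSE samples and 27.0% to 30.2% in WT samples. TPM is a share, so a smaller mitochondrial share leaves more for all other genes. With those genes left out and the rest rescaled, the median of all genes tested became -0.058. Of all calls, 34.3% were higher in CSE instead of 48.9%. Of the 12780 genes tested in that setting, 2343 were called higher and 4489 lower. Among the 10 genes, 4 were called higher and 2 lower. The 2 calls lost were those of DUSP6 (log2 fold change 0.033, limma adjusted p = 0.362) and SPRY4 (0.10, limma adjusted p = 0.055). Median-of-ratios scaling moved the other way, with 3560 genes called higher and 3309 lower. DUSP6 (0.10, limma adjusted p = 0.0139) and SPRY4 (0.17, limma adjusted p = 0.00147) kept their calls there. With quantile normalization DUSP6 lost its call (limma adjusted p = 0.128) and SPRY4 kept it (0.0168). Which scaling is right was not tested.

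**Figure D4:**
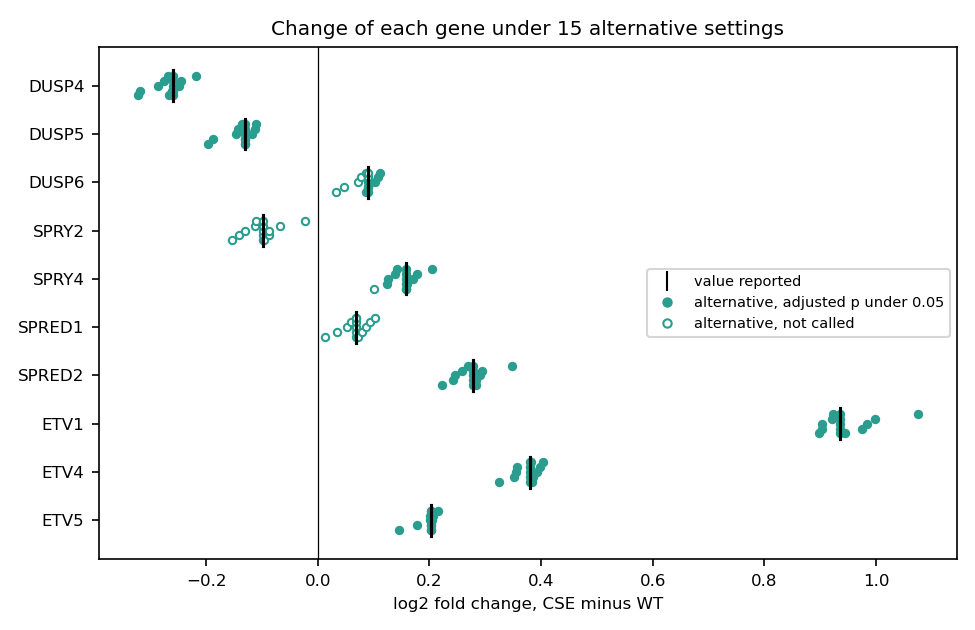
Log2 fold change of each gene, CSE minus WT, as reported (black line) and under each of 15 alternative settings (circles, filled where the adjusted p is under 0.05). The circles of ETV1 run from 0.90 to 1.08 and stay filled, while those of DUSP6 run from 0.033 to 0.11 and 9 of 15 are open.

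The other genes of the pathway, on lists drawn up by their roles, did not share 1 direction. Over 68 tested genes of 77, limma called 19 higher and 18 lower in CSE samples, with a median log2 fold change of -0.016. Their share of calls, higher or lower, lay close to that of all genes tested.

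The other MAP kinase phosphatase genes were called lower or not called. Of 7 tested, 5 were lower, against 25.6% of all genes tested, and 0 higher, against 24.5% (median log2 fold change -0.18). DUSP1, an immediate early gene whose product acts on JNK and p38 as well as ERK, was at 19.8, 19.9 and 19.2 TPM in CSE samples, against 32.6, 32.9 and 30.3 TPM in WT samples (log2 fold change -0.67, limma adjusted p = 6.41e-10). The others called lower, named after their values were seen, were DUSP7 (log2 fold change -0.50), DUSP8 (-0.35), DUSP16 (-0.18) and DUSP2 (-0.15). DUSP9 and DUSP10 were not called. The count of 5 lower was 4 without the filter, without the variance trend, without CSE sample 3 and without WT sample 1. Over all genes, lower calls in these settings were 3122, 3112, 3040 and 2557, against 3277 as reported. Among the remaining Sprouty and Spred genes, SPRY1 was at 4.77 ± 0.234 TPM in CSE samples and 5.05 ± 0.0808 TPM in WT samples (limma adjusted p = 0.452). SPRED3 was at 4.37 ± 0.449 TPM in CSE samples and 4.82 ± 0.334 TPM in WT samples (limma adjusted p = 0.238), and SPRY3, at 0.83 to 1.14 TPM in CSE samples and 0.85 to 0.98 TPM in WT samples, did not pass the filter.

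Outside the PEA3 group, ETS factor genes were called in both directions. Of 24 listed, 16 were tested, 6 called higher, against 24.5% of all genes tested, and 4 lower, a share close to the 25.6% of all genes tested (median log2 fold change 0.094). ETS1 was at 17.3, 17.0 and 16.1 TPM in CSE samples, against 31.2, 31.2 and 29.3 TPM in WT samples, with no overlap (log2 fold change -0.83, limma adjusted p = 3.66e-11). ELF5, an epithelial ETS gene near the filter limit, was at 1.54, 1.68 and 1.45 TPM in CSE samples, against 0.87, 0.73 and 0.49 TPM in WT samples (log2 fold change 0.60, limma adjusted p = 0.000112). All its WT values were under 1 TPM, so ELF5 passed the filter only through its CSE values. Its higher call is therefore not independent of the filter, and ELF5 was not tested when a CSE sample was left out. The 6 higher calls and the median of this list include ELF5, as do the 19 higher calls and the median over all lists. The others called, named after their values were seen, were ELF1 (log2 fold change 0.30), ERF (0.30), GABPA (0.18), ELK1 (0.14) and EHF (0.13), all higher, and ELK3 (-0.54), ELK4 (-0.30) and ETV3 (-0.18), all lower. The count of 6 higher was 2 without CSE sample 1, 3 without CSE sample 2, 3 without the filter and 3 after removal of the mitochondrially encoded genes. Over all genes, higher calls in these settings were 2657, 2728, 2827 and 2343, against 3130 as reported.

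The cascade itself was tested with 23 genes. Of these, which run from the adaptor GRB2 to the kinases downstream of ERK, 4 were called higher, 3 lower and 16 not called, against 24.5% higher and 25.6% lower over all genes tested (median log2 fold change -0.028). MKNK2, a kinase that ERK activates, had the largest log2 fold change of the list, at 127, 126 and 113 TPM in CSE samples, against 87.5, 88.3 and 84.9 TPM in WT samples (log2 fold change 0.48, limma adjusted p = 1.53e-08). RPS6KA1, which encodes the ERK substrate kinase RSK1, was at 46.8 ± 1.14 TPM in CSE samples and 56.2 ± 1.86 TPM in WT samples (SD, n = 3 each; log2 fold change -0.26, limma adjusted p = 5.75e-05). The 4 higher calls became 7 without CSE sample 3, and the 3 lower calls became 5 without WT sample 3, 5 with quantile normalization and 7 after removal of the mitochondrially encoded genes. Calls over all genes changed too. Those higher went from 3130 to 3518 without CSE sample 3. Those lower went from 3277 to 3089, 3452 and 4489 in the other 3 settings, in that order.

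Of 8 genes that restrain RAS or RAF by other means, 4 were called higher and 1 lower, against 24.5% and 25.6% of all genes tested (median log2 fold change 0.14). PEBP1, which encodes the RAF kinase inhibitor protein, was at 311, 310.4 and 318 TPM in CSE samples, against 232, 233 and 226 TPM in WT samples (log2 fold change 0.44, limma adjusted p = 2.15e-09). RASAL2, which encodes a RAS GTPase-activating protein, was at 6.49, 6.60 and 5.29 TPM in CSE samples, against 6.98, 7.51 and 7.13 TPM in WT samples (log2 fold change -0.21, limma adjusted p = 0.0291). That single lower call was lost without CSE sample 3, without any 1 of the 3 WT samples and without the filter.

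The 12 further genes that ERK is known to induce had 5 called higher, against 24.5% of all genes tested, and 5 lower, against 25.6% (median log2 fold change 0.04). PLAUR, the urokinase receptor gene, was at 57.3, 55.8 and 55.5 TPM in CSE samples, against 39.9, 41.8 and 39.8 TPM in WT samples (log2 fold change 0.46, limma adjusted p = 2.12e-08). FOS, an AP-1 subunit gene, was at 60.5, 61.7 and 57.7 TPM in CSE samples, against 92.1, 85.6 and 87.5 TPM in WT samples (log2 fold change -0.55, limma adjusted p = 1.32e-09). Beside them, and named after their values were seen, EGR1 (log2 fold change 0.43), IER3 (0.38), PHLDA1 (0.32) and LIF (0.18) were called higher, and UPP1 (-0.39), CCND1 (-0.28), EPHA4 (-0.17) and EPHA2 (-0.14) lower.

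**Figure D5:**
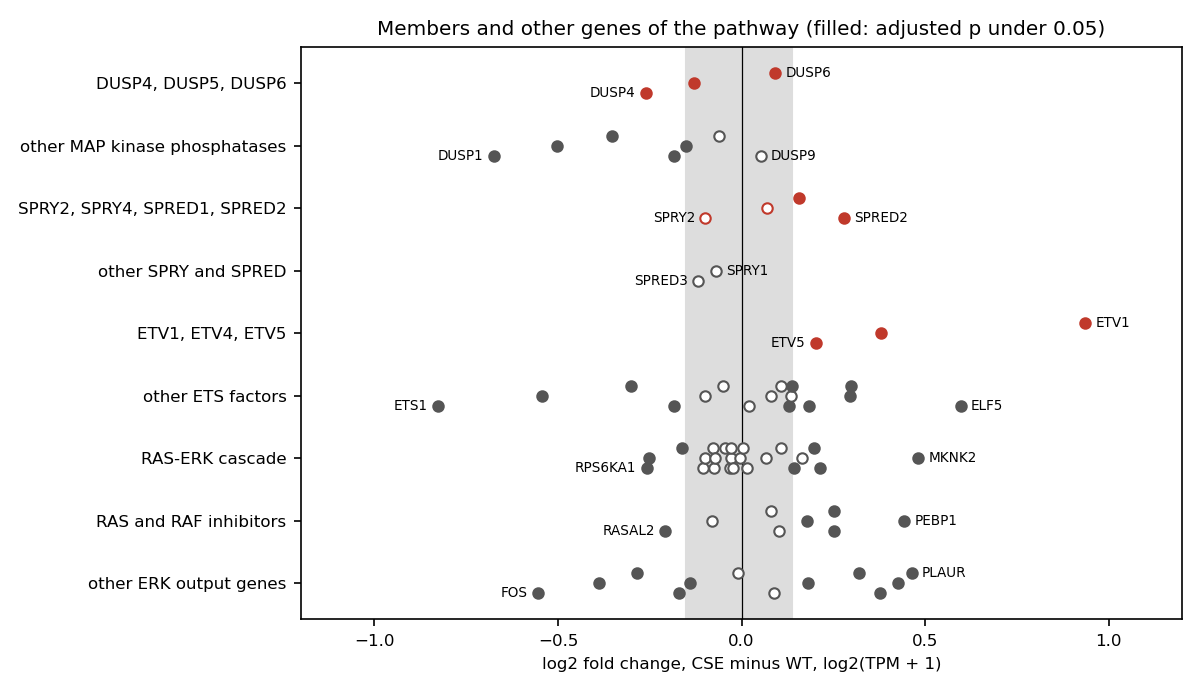
Log2 fold change, CSE minus WT, of the 10 genes (red) and of the tested genes of 6 other lists of the pathway (grey), 1 point per gene, filled where the adjusted p is under 0.05; the names mark the lowest and highest of each row and the grey band the middle of all genes tested, from -0.15 to 0.14. The ETV genes all lie right of 0, and 5 of 7 other MAP kinase phosphatase genes are filled points left of 0.

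The genes whose pattern over the 6 samples was most like that of ETV1 were EREG, PIF1, ARRDC3, BORA and CENPF. Likeness was the root mean square difference between centred log2(TPM + 1) values, over 10645 genes with a mean of at least 5 TPM, where the median gene had 0.473. EREG, which encodes the EGF receptor ligand epiregulin, came first with 0.0524, at 110.0, 119 and 102 TPM in CSE samples, against 57.1, 56.8 and 55.0 TPM in WT samples. The DNA helicase gene PIF1 (0.0682), the arrestin family gene ARRDC3 (0.0694), BORA, a cofactor of mitotic kinases (0.0716), and the centromere protein gene CENPF (0.0723) followed. The measure mainly reads the size of the difference between the groups, since the samples fall into 2 groups. Adding 1 before taking logs shrinks the change of ETV1 more than that of genes at higher levels. The order thus depends in part on that choice, and no other scale was tried for it.

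The labelled cell type was checked with 22 marker genes. Of 10 colorectal epithelial markers, 7 reached 1 TPM, with EPCAM, CDH1 and the keratin genes KRT8, KRT18 and KRT19 well expressed, while VIL1 and CEACAM5 stayed under 1 TPM and CDX1 was listed at 0 in all 6 samples. The summed level of the 10 was 5585 to 5884 TPM in CSE samples and 5332 to 5588 TPM in WT samples. Of 5 fibroblast markers COL1A1 alone reached 1 TPM, at 37.0 to 37.5 TPM in CSE samples and 42.6 to 44.8 TPM in WT samples (log2 fold change -0.23), with DCN listed at 0 throughout and LUM at no more than 0.05 TPM. The 4 leukocyte markers summed to 0.21 to 0.54 TPM in CSE samples and 1 to 1.84 TPM in WT samples, with PTPRC at no more than 0.03 TPM. CD14, the 1 leukocyte marker to reach 1 TPM, was at 0.29, 0.08 and 0.39 TPM in CSE samples, against 0.85, 0.71 and 1.45 TPM in WT samples. The 3 endothelial markers summed to 0.54 to 0.73 TPM in CSE samples and 0.47 to 0.81 TPM in WT samples. The leukocyte and endothelial sums lay below the level of each of the 10 genes in every sample. The part of COL1A1-expressing cells in the results was not tested.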

How the data were processed

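The authors deposited 1 table of TPM for 20263 genes in 6 libraries, made from poly(A) RNA per the labels' protocols. The build GRCh38 and the tools HISAT2 2.0, Trimmomatic 0.36, FastQC 0.11.2 and bedtools 2.26.0 are listed, without their roles, in the submitters' processing notes. The sources used here name no counting program, annotation or strandedness, so reads of overlapping antisense genes may be included. TPM keeps no depth: the depth of each sample is unknown, and no counting interval was computed. Of the sample columns, 0 were left unmapped.

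Symbols were matched for 20148 identifiers, and positions come from GENCODE 29 (GRCh38). Genes with at least 1 TPM in at least 3 libraries (12793) were compared, CSE minus WT, on log2(TPM + 1) with limma 3.58.1 in R 4.3.3 (empirical Bayes with a mean-variance trend, two-sided, Benjamini-Hochberg adjustment over all genes tested, threshold 0.05). The procedure was tested on simulated data. The unit was the one assumed in the design. Members, lists and tests were chosen with earlier results of these data known. The genes named are the 10 members, from each other list the called gene with the largest change in each direction (all genes of a list of 3), and the 5 profiles nearest to that of the member with the largest change. Other genes of the lists are named only where the text says that they were chosen after their values were seen. Promoter sequences come from RefSeq (GRCh38.p14). Protein sequences were not used here. The 15 alternatives comprised no filter, a filter at a mean of 5 TPM, another pseudocount (0.1), median-of-ratios scaling, quantile normalization, removal of mitochondrially encoded genes, no variance trend, a robust prior, the replicate block and leaving out each sample.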

Additional observations from a re-analysis of the deposited data

How the results depend on the processing

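Over the 15 alternatives, between 5408 and 6924 genes were called, against 6407 as reported; 4 to 6 of the 10 members were called higher and 2 lower in each. DUSP4, DUSP5, SPRED2, ETV1, ETV4 and ETV5 kept their call in all 15, SPRY2 and SPRED1 were called in 0, SPRY4 lost its call in 1 and DUSP6 in 9; 0 members changed direction. Leaving out each sample gave 5 or 6 members higher. Of the other pathway genes, 13 to 24 were called higher and 15 to 23 lower.

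Replicate numbers are shared between the groups, but same-numbered samples did not deviate together (correlations of -0.0711, 0.015 and -0.0883). With the replicate number as a block, 6537 genes were called, with 5 members higher and 2 lower, the lost call being that of DUSP6 (limma adjusted p = 0.0716), and 20 and 18 of the other pathway genes. The depth of the libraries is unknown, so what it limits could not be computed.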
